A study of Mus musculus with 9 samples.

Results

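The collagen and laminin genes of the mouse were described in the cerebellum of a mouse model of spinocerebellar ataxia type 3 (SCA3), a neurodegenerative disease caused by a longer CAG repeat in the ATXN3 gene. The family was picked with earlier results of these data known, and its members were found by symbol: a protein-coding gene entered when its symbol was Col followed by a type and chain number, or Lama, Lamb or Lamc followed by a chain number. The rule found 55 of the 37816 genes in the count table. They comprised 11 fibrillar collagen chains, 8 collagen chains of basement membranes (types IV, XV and XVIII), 25 chains of other collagens and 11 laminin chains.

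Collagens and laminins are proteins of the extracellular matrix, some collagens being anchored in the cell membrane, and each molecule is a trimer of chains, which may be alike or come from different genes. Fibrillar collagens such as types I, III and V form the tensile fibrils of connective tissue, which in the brain lie mostly in the meninges, the choroid plexus stroma and around larger vessels. Type IV collagen and the laminins, each an alpha, a beta and a gamma chain, build the basement membranes that surround brain vessels and underlie the pial surface.

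RNA was taken from cerebellar tissue of transgenic C57BL/6 mice harvested at 18 months of age. All of the mice carried the human ATXN3 gene on a yeast artificial chromosome, with 15 CAG repeats in the control group (15Q) and 84 repeats in the disease group (84Q), and there was no group without the transgene. Mice were injected into the peritoneum once a week from 9 months of age, with IGF-1 at 50 mg/kg in the 84Q+IGF-1 group and, in the study's methods, with phosphate-buffered saline in the 15Q and 84Q groups, which the labels call untreated. Each group had 3 replicate libraries, which the study describes as individual mice. The titles also carry a tag for each library, and parts of the tags recur between 84Q and 84Q+IGF-1, but what they mark is not stated.

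The libraries held between 17482654 and 58269196 counts. Marker genes fixed for Purkinje cells, granule cells and astrocytes including Bergmann glia were abundant in all 9 libraries, with summed levels of 6220 to 6936, 5334 to 6178 and 3300 to 3803 CPM (counts scaled to the library total), so the tissue label held. Libraries stood apart in other ways. A list of 12 choroid plexus markers summed to 552 and 542 CPM in 15Q replicates 1 and 3 and to 1116 CPM in 84Q replicate 2, against 30.3 to 73.3 CPM in the other 6 libraries. Markers of epidermis, skeletal muscle, intestine and liver, which the cerebellum should lack, were higher in each of the 15Q libraries than in each of the other 6. The summed lists were at 26.6 to 40.9 against 13.7 to 16.9 CPM for epidermis, 17.9 to 27.0 against 4.79 to 6.52 CPM for skeletal muscle, 21.4 to 33.9 against 5.17 to 6.94 CPM for intestine and 26.4 to 42.1 against 8.40 to 12.9 CPM for liver. These values move with the comparisons against 15Q below, and their part in any of the results was not tested. In bulk tissue, fewer cells of a type and less RNA per cell cannot be told apart.

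Levels between genes were compared as TPM, in which counts are divided by the length of each gene's exons and then scaled to the library. Averaged over the 9 libraries, the 55 genes ranged from 0.0649 to 97.7 TPM, with a median of 4.40 TPM. At 10 TPM or more there were 16 genes, and 13 were below 1 TPM. Col18a1, whose C-terminal fragment is endostatin, stood first at 97.7 TPM and made up 18.9% of the summed TPM of all 55 genes (15.2% to 23.6% over libraries). It was followed by Col9a3, a chain of a fibril-associated collagen known from cartilage, at 44.9 TPM and by Lamb2, the laminin beta 2 chain of mature vessel basement membranes, at 34.2 TPM. The next were Col5a1 at 25.0, Lamc1 at 22.9, Col9a2 at 22.0 and Col11a2 at 19.9 TPM. The paired type IV chains Col4a2 and Col4a1, present in every basement membrane, were at 17.7 and 16.9 TPM, and Lamb1 at 16.3 TPM. The classes took similar shares of the sum, 20.4% for the fibrillar collagens, 28.3% for the basement membrane collagens, 30.4% for the other collagens and 20.8% for the laminins.

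**Figure D1:**
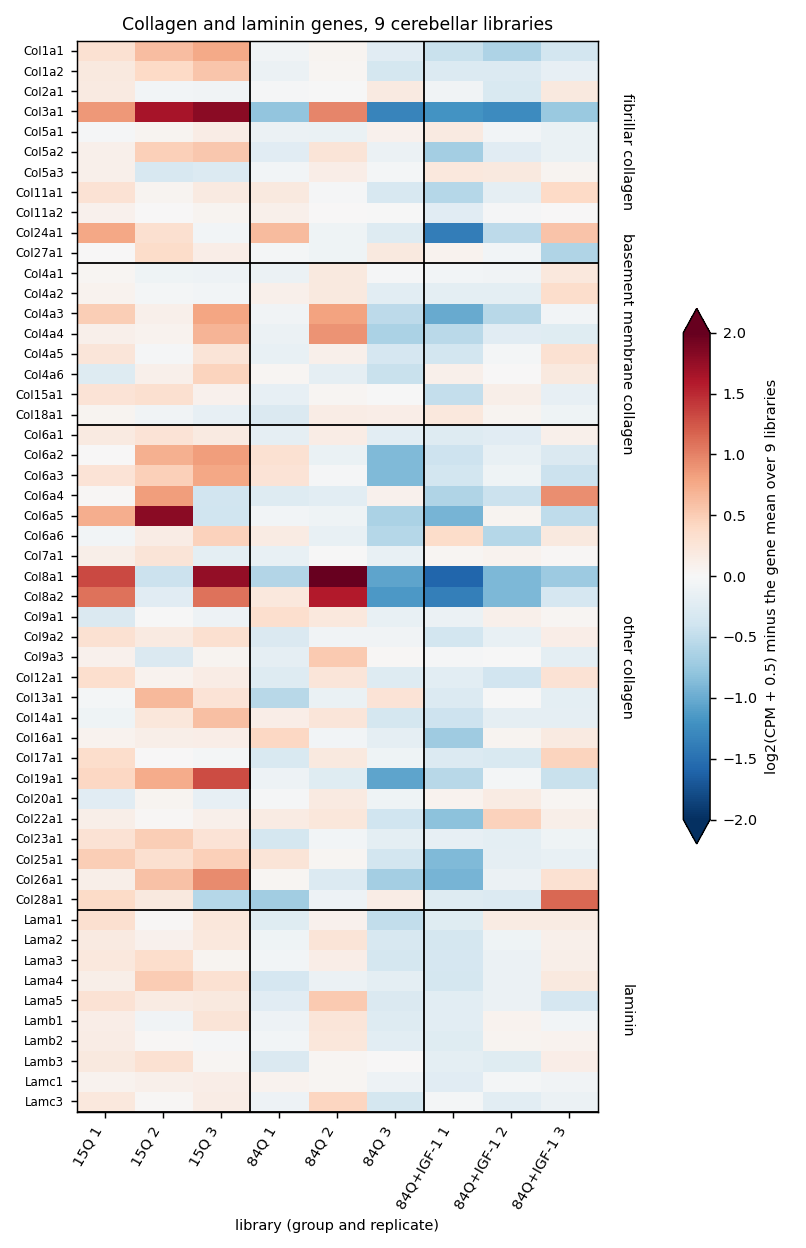
Level of 53 of the tested collagen and laminin genes (rows, by class) in each of the 9 libraries (columns), as log2(CPM + 0.5) minus the gene's mean over the libraries, with colours that saturate at a difference of 2 in either direction. Col19a1 is reddest in the 15Q libraries, Col3a1 is red in the 15Q libraries and in 84Q replicate 2, and Col8a1 and Col8a2 are reddest in 15Q replicates 1 and 3 and 84Q replicate 2.

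Fold changes were tested with edgeR's quasi-likelihood test and Benjamini-Hochberg adjustment over all 19353 genes with enough counts. A gene was called where the adjusted p was under 0.1 and the change was at least 1.5-fold, the thresholds of the study's methods. Of the 55 genes 54 could be tested. Col10a1, a marker of hypertrophic cartilage, had 13 counts in all and failed the filter.

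In the 84Q group, 4 of the 54 genes fell against 15Q and none rose. Col1a1, Col19a1 and Col23a1 were among them and stood at 0.401 to 0.665 of the 15Q level. The 4 are 7.41% of the genes tested, where 2.14% of all genes were called, 1.90% lower and 0.238% higher. The estimates leaned to one side, with 46 of the 54 below 0 (50.3% of all genes) and a median log2 fold change of −0.27 (−0.00 over all genes). Every 84Q library lay below every 15Q library for 13 genes, or 24.1%, against 13.5% of all genes, and the reverse held for none of them, against 11.9% of all genes. An unadjusted p under 0.05 was reached by 15 genes (19.4% of all genes reached it). Leaving out 15Q replicate 1, 2 or 3 gave 8, 2 or 1 calls, while 2.66%, 0.932% and 0.938% of all genes were called.

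In the 84Q+IGF-1 group, 7 of the 54 genes fell against 15Q and none rose. Of these, 4 were fibrillar chains, Col1a1, Col1a2, Col3a1 and Col5a2, and the others included Col19a1 and Col25a1. The 7 are 13.0% of the genes tested, where 2.25% of all genes were called, 2.06% lower and 0.186% higher. Here 47 of the 54 estimates were below 0 (51.1% of all genes), with a median of −0.28 (−0.01 over all genes). Every treated library lay below every 15Q library for 20 genes (13.0% of all genes did so), and above for none of them (11.7%). An unadjusted p under 0.05 was reached by 25 genes, where 17.7% of all genes reached it. Leaving out 15Q replicate 2 or 3 gave 4 or 3 calls, and leaving out treated replicate 1 gave 3, while 1.24%, 1.15% and 1.51% of all genes were called. With Ttr, a choroid plexus marker, as a covariate 2 genes were called (1.33% of all genes), and by DESeq2 10 (1.56%). Both comparisons use the same 3 control libraries, so a library that is high in 15Q moves both of them.

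In 9 genes each 15Q library was above each of the other 6 libraries, where 6.37% of all genes were, and in 0 it was below, where 5.93% of all genes were. Among the 9 were Col1a1, Col1a2, Col6a1, Col9a2, Col19a1, Col23a1, Col25a1 and Lamc1.

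Among the fibrillar collagens, the genes for type I collagen, the main collagen of fibrous tissue, were lower in both groups with the longer repeat than in 15Q. Col1a1, the alpha 1 chain (ENSMUSG00000001506.10, chr11:94936224-94953042, plus strand, positions on GRCm38 from GENCODE vM21), was at 13.1, 16.5 and 18.4 TPM in the 15Q libraries, at 9.83, 10.8 and 8.68 TPM in 84Q and at 7.47, 6.81 and 8.20 TPM in 84Q+IGF-1. The groups did not overlap, and the treated libraries lay below the 84Q libraries as well. Col1a1 fell by 0.67 ± 0.12 on the log2 scale (± standard error, adjusted p = 0.0206, n = 3 per group, edgeR) in 84Q and by 1.07 ± 0.13 (adjusted p = 8.13e-04, edgeR) in 84Q+IGF-1. The first call was lost without 15Q replicate 3, where the log2 fold change was −0.56, and without the 3 libraries highest in Ttr, the choroid plexus marker, where it was −0.78 (edgeR adjusted p = 0.103). The second was kept in all 19 alternatives tried.

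Col1a2, the alpha 2 chain (ENSMUSG00000029661.16, chr6:4504814-4541544, plus strand), was at 10.2, 11.7 and 13.3 TPM in 15Q, at 7.95, 8.90 and 6.61 TPM in 84Q and at 7.004, 7.26 and 7.90 TPM in 84Q+IGF-1. The 15Q libraries were the highest, and the other groups overlapped. Col1a2 fell by 0.64 ± 0.11 in 84Q+IGF-1 (adjusted p = 0.0122, edgeR), a call lost without 15Q replicate 3 (log2 fold change −0.55) and with Ttr as a covariate (−0.53), where the change was under 1.5-fold. In 84Q its log2 fold change of −0.54 ± 0.11 passed the adjusted p (0.0387) but not the 1.5-fold threshold, which it passed without 15Q replicate 1 (−0.62) or without 84Q replicate 2 (−0.63). The ratio of Col1a1 to Col1a2 TPM averaged 1.36 ± 0.0612 (SD, n = 3) over the 15Q libraries, 1.25 ± 0.0535 over 84Q and 1.01 ± 0.0670 over the treated ones. All treated libraries, at 0.939 to 1.07, lay below the other 6, at 1.21 to 1.41, and this ratio was chosen after its values were seen and was not tested.

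Col3a1 (ENSMUSG00000026043.18, chr1:45311538-45349706, plus strand) encodes type III collagen, found with type I in distensible tissue. It was at 6.87, 12.1 and 13.7 TPM in 15Q, at 2.01, 7.28 and 1.31 TPM in 84Q and at 1.44, 1.42 and 2.15 TPM in 84Q+IGF-1. The treated libraries were uniformly low, while 84Q replicate 2 reached the range of 15Q. Col3a1 fell by 2.68 ± 0.50 in 84Q+IGF-1 (adjusted p = 0.0167, edgeR), or to 0.156 of the 15Q level. In 84Q the log2 fold change was −1.57 ± 0.47 (adjusted p = 0.107, edgeR), and without 84Q replicate 2, one of the libraries with high choroid plexus markers, it was −2.63 with an adjusted p of 0.0023. It was also called without 15Q replicate 1 (adjusted p = 0.0780, edgeR) and with Ttr as a covariate (0.0684). Without the 3 libraries highest in Ttr, which leaves 15Q with a single library, the log2 fold change was −2.79. With no filter on low counts it stayed at −1.58 while the adjusted p fell to 8.46e-35 (edgeR). That call is not read as support.

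Col5a2 (ENSMUSG00000026042.16, chr1:45374321-45503282, minus strand) encodes a type V chain that joins type I fibrils, and the gene lies 24614 bases from Col3a1 in the opposite orientation. It was at 2.98, 3.93 and 4.20 TPM in 15Q. It was at 2.28, 3.26 and 2.45 TPM in 84Q and at 1.58, 2.33 and 2.51 TPM in 84Q+IGF-1. The treated libraries lay below 15Q, and 84Q overlapped both. Col5a2 fell by 0.77 ± 0.19 in 84Q+IGF-1 (adjusted p = 0.0649, edgeR), and the call was lost without 15Q replicate 2 or 3 or without treated replicate 1 or 2, with adjusted p-values of 0.194, 0.246, 0.195 and 0.104. It was also lost with Xist (0.136) or Ttr (0.271) as a covariate, without the 3 libraries highest in Ttr (0.222) and at a threshold of 0.05. The log2 fold change in these fits ran from −0.85 to −0.61. In 84Q its log2 fold change was −0.43 ± 0.19 (adjusted p = 0.233, edgeR).

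The more abundant fibrillar chains were not called. Col5a1, another type V chain, was at 22.4 to 28.5 TPM over all libraries, Col11a2, a type XI chain, at 16.5 to 21.4 TPM, Col27a1 at 9.47 to 18.4 TPM and Col5a3 at 11.2 to 16.0 TPM, each with overlapping groups. The remaining fibrillar genes Col2a1, Col11a1 and Col24a1 averaged 0.550 to 2.62 TPM. Over the class the median log2 fold change was −0.21 in 84Q, with 9 of 11 estimates below 0, and −0.35 in 84Q+IGF-1, with 10 of 11 below 0.

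**Figure D2:**
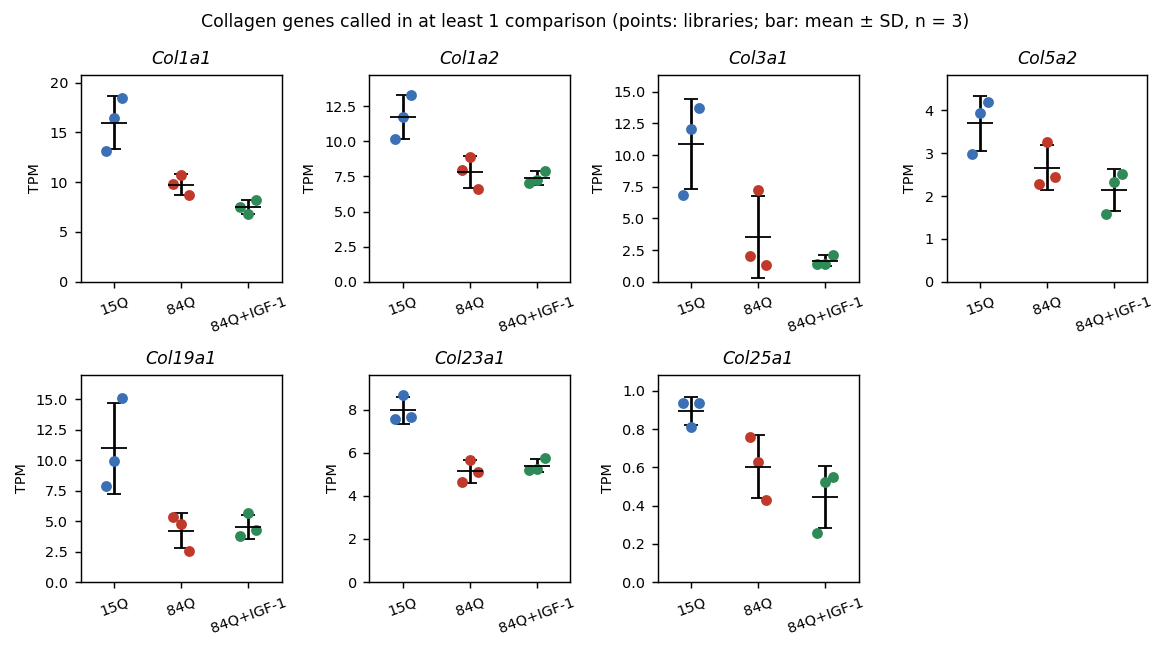
TPM of 7 collagen genes called in at least 1 comparison, with a point for each library and a bar for the group mean ± SD (n = 3), on linear axes from 0. In Col1a1, Col1a2, Col19a1, Col23a1 and Col25a1 every 15Q point lies above every other point, while in Col3a1 the 84Q library at 7.28 TPM lies above the lowest 15Q library at 6.87 TPM.

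The basement membrane collagens gave no call in either comparison in the edgeR fit of all 9 libraries described above. Col4a1 and Col4a2 were at 15.5 to 20.0 and 14.7 to 22.9 TPM over the 9 libraries, with overlapping groups. Their TPM ratio stayed between 0.834 and 1.11. The genes lie head to head on chromosome 8 with start sites 21 bases apart, and their first exons share 22 bases, given here because a read there cannot be assigned to either gene without strand (chr8:11312805-11312826, GRCm38.p6, plus strand).
Col4a1 and Col4a2: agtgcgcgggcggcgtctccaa

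Col18a1 was at 102, 93.7 and 89.5 TPM in 15Q, at 78.9, 106 and 104 TPM in 84Q and at 110, 102 and 93.1 TPM in 84Q+IGF-1. The groups overlapped, with the lowest and the second highest library both in 84Q. Its log2 fold change was 0.06 ± 0.11 in 84Q (adjusted p = 0.805, edgeR) and turned to −0.0076 without 84Q replicate 2. Of the other chains, Col4a5, which forms networks with Col4a6 or with Col4a3 and Col4a4, was at 5.34 to 9.03 TPM. Col4a3 and Col4a4, known from the kidney glomerulus, averaged 0.721 and 0.895 TPM. Both lay below 15Q in all treated libraries. The estimate was −1.27 ± 0.42 for Col4a3 and −0.81 ± 0.38 for Col4a4 on the log2 scale (adjusted p = 0.156 and 0.289, edgeR), and they were named after their values were seen. Col4a3 was called by DESeq2 (adjusted p = 0.0781), and by edgeR with the libraries of the 2 groups alone (0.0890) or without 84Q replicate 2 (0.0902). With no filter on low counts both genes were called, but the log2 fold changes stayed at −1.27 and −0.81, so these calls are not read as support. With Ttr as a covariate the log2 fold changes shrank to −0.56 for Col4a3 and −0.21 for Col4a4, without the 3 libraries highest in Ttr to −0.77 and −0.50, and that of Col4a4 to −0.52 without 15Q replicate 3. The class median was −0.22 in 84Q and −0.11 in 84Q+IGF-1, with 5 of 8 estimates below 0 in each.

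Among the other collagens, Col19a1, a fibril-associated collagen that is also made by neurons (ENSMUSG00000026141.13, chr1:24261890-24587472, minus strand), was at 7.88, 9.97 and 15.1 TPM in 15Q. It was at 5.36, 4.76 and 2.57 TPM in 84Q and at 3.78, 5.66 and 4.24 TPM in 84Q+IGF-1. All 6 libraries with the longer repeat lay below the lowest 15Q library, and the highest value was that of 15Q replicate 3. Col19a1 fell by 1.32 ± 0.27 in 84Q (adjusted p = 0.0310, edgeR), or to 0.401 of the 15Q level, and by 1.25 ± 0.26 in 84Q+IGF-1 (adjusted p = 0.0356, edgeR). Without 15Q replicate 3 both calls were lost, at log2 fold changes of −1.02 and −0.95 (edgeR adjusted p = 0.122 and 0.150), and the second also without treated replicate 1 (0.131) or with Ttr as a covariate (0.199), at log2 fold changes of −1.15 and −1.07. Neither call held without the 3 libraries highest in Ttr, where the log2 fold changes were −1.25 and −1.11 (adjusted p = 0.283 and 0.259, edgeR).

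Col23a1, a transmembrane collagen (ENSMUSG00000063564.13, chr11:51289920-51583918, plus strand), was at 7.56, 8.70 and 7.64 TPM in 15Q, at 4.63, 5.69 and 5.10 TPM in 84Q and at 5.20, 5.27 and 5.75 TPM in 84Q+IGF-1. The 84Q and treated libraries overlapped below 15Q. Col23a1 fell by 0.59 ± 0.11 in 84Q (adjusted p = 0.0242, edgeR), at 0.665 of the 15Q level, which is at the 1.5-fold threshold. The call was lost without 15Q replicate 2, 84Q replicate 1 or treated replicate 2, where the log2 fold changes were −0.51, −0.51 and −0.58. By DESeq2, with DESeq2 size factors in edgeR and with Ttr as a covariate the change was likewise just under 1.5-fold (−0.58 in each), and without the 3 libraries highest in Ttr it was larger (−0.80) at an adjusted p of 0.145. The treated group differed from 15Q by −0.54 ± 0.11 (adjusted p = 0.0339, edgeR), under the fold threshold.

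Col25a1, a transmembrane collagen of neurons also known as the collagenous amyloid plaque component (ENSMUSG00000058897.18, chr3:130131501-130599877, plus strand), was expressed at a low level. It was at 0.936, 0.811 and 0.938 TPM in 15Q, at 0.757, 0.626 and 0.428 TPM in 84Q and at 0.258, 0.525 and 0.548 TPM in 84Q+IGF-1, from 20 to 173 counts per library. The 15Q libraries were the highest. Col25a1 fell by 0.98 ± 0.26 in 84Q+IGF-1 (adjusted p = 0.0870, edgeR), and this call did not survive the loss of any one of the 15Q libraries or of treated replicate 1 or 2, with adjusted p-values from 0.112 to 0.269. It was also lost with Xist (0.159) or Ttr (0.378) as a covariate, with the replicate number as a block (0.187) and at a threshold of 0.05. Without the 3 libraries highest in Ttr, which leaves 15Q with a single library, the log2 fold change was −0.84. The log2 fold change in these fits ran from −1.10 to −0.73. In 84Q the log2 fold change was −0.50 ± 0.26 (adjusted p = 0.313, edgeR).

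Col6a1, a chain of the microfibrillar type VI collagen, and Col9a2, a partner of Col9a3, were above all other libraries in 15Q without being called. Col6a1 was at 17.2, 18.4 and 17.6 TPM in 15Q and at 12.2 to 16.5 TPM elsewhere, and its estimates were −0.28 ± 0.12 for 84Q and −0.33 ± 0.12 for the treated group (adjusted p = 0.235 and 0.195, edgeR). Col9a2 was at 27.2, 24.7 and 27.9 TPM in 15Q and at 16.3 to 24.3 TPM elsewhere, and its estimates were −0.42 ± 0.12 and −0.39 ± 0.12 (adjusted p = 0.104 and 0.141, edgeR). Col9a3 overlapped between all groups, at 36.7 to 62.9 TPM. Col7a1, the anchoring fibril collagen, was at 11.6 to 15.9 TPM, where 15Q overlapped both other groups and every treated library was above every 84Q library.

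Col8a1 and Col8a2, the chains of the network-forming type VIII collagen, were named after their values were seen, because they followed single libraries rather than groups. Col8a1 was at 3.82, 0.957 and 5.32 TPM in 15Q, at 0.817, 6.98 and 0.509 TPM in 84Q and at 0.277, 0.617 and 0.728 TPM in 84Q+IGF-1. Col8a2 was at 7.69, 2.85 and 7.88 TPM, at 3.91, 10.8 and 1.23 TPM and at 1.003, 1.62 and 2.60 TPM in the same order. Both were highest in 84Q replicate 2 and in 15Q replicates 1 and 3, the libraries in which Ttr, the transthyretin gene of the choroid plexus epithelium, was at 832, 354 and 340 CPM. In the other 6 libraries Ttr was at 0.855 to 19.8 CPM.

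Against 15Q, the log2 fold changes in 84Q+IGF-1 were −2.60 ± 0.90 for Col8a1 and −1.78 ± 0.62 for Col8a2 (adjusted p = 0.168 and 0.170, edgeR). Without 84Q replicate 2, which belongs to neither group, both were called, at adjusted p-values of 0.0375 and 0.0772, and Col8a2 also without 84Q replicate 3 (0.0785). Both were called with the libraries of the 2 groups alone (0.0449 and 0.0511). With no filter on low counts both were called too, but the log2 fold changes stayed at −2.60 and −1.78, so these calls are not read as support. With Ttr as a covariate the log2 fold changes shrank to −0.68 for Col8a1 and −0.53 for Col8a2, and without the 3 libraries highest in Ttr to −0.79 and −0.68. When the 3 libraries highest in Ttr were left out, 1 gene was called in 84Q, Col3a1, and 4 in 84Q+IGF-1, Col1a1, Col1a2, Col3a1 and Col6a5, where 0.460% and 0.925% of all genes were called. That leaves 15Q with a single library, which is assumed to vary like the other groups.

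**Figure D3:**
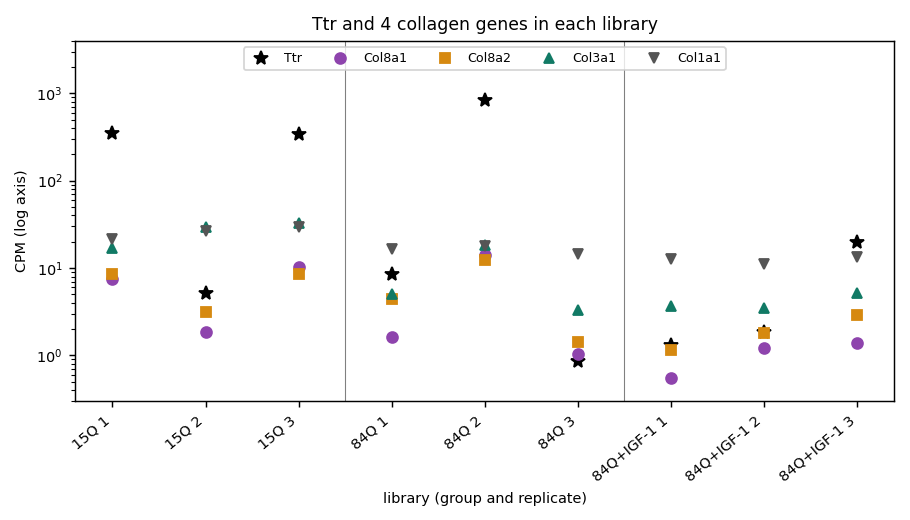
CPM, on a log axis, of Ttr (stars) and of 4 collagen genes in each of the 9 libraries, with vertical lines between the groups. Ttr, Col8a1 and Col8a2 are high in 15Q replicates 1 and 3 and 84Q replicate 2, while Col1a1 is highest in the 15Q libraries and does not follow Ttr.

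The class of other collagens had a median log2 fold change of −0.33 in 84Q and −0.36 in 84Q+IGF-1, with 21 of 24 tested estimates below 0 in each. Of its 25 genes, 9 averaged under 1 TPM.

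Among the laminins, Lamc1, the gamma chain of most of them, was at 24.2, 24.9 and 25.9 TPM in 15Q. It was at 23.7, 23.2 and 20.7 TPM in 84Q and at 18.9, 22.5 and 22.2 TPM in 84Q+IGF-1. The 15Q libraries were the highest by a narrow margin, and the log2 fold changes were −0.10 ± 0.07 and −0.22 ± 0.07 (adjusted p = 0.464 and 0.148, edgeR). Lama4, the alpha chain of endothelial basement membranes, was named after its values were seen. It was at 2.49, 3.34 and 2.94 TPM in 15Q, at 1.76, 2.04 and 1.91 TPM in 84Q and at 1.70, 2.10 and 2.67 TPM in 84Q+IGF-1. The 84Q libraries lay below 15Q, and the treated libraries overlapped it. Its log2 fold change of −0.58 ± 0.16 in 84Q passed the adjusted p (0.0919, edgeR) but not the fold threshold, which it passed without 15Q replicate 1 (−0.66).

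Lamb2, Lamb1 and Lama5, the more abundant beta and alpha chains, were at 27.9 to 39.1, 13.1 to 20.0 and 7.14 to 12.7 TPM and were not called, nor were Lama3 and Lamb3, chains of epithelial laminins, at 0.701 to 1.30 and 3.77 to 5.94 TPM. The ratio of Lamb1 to Lamb2 stayed between 0.437 and 0.582. All 11 laminin estimates were below 0 in both comparisons, with medians of −0.19 in 84Q and −0.27 in 84Q+IGF-1.

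Summed over a class, the fibrillar collagens separated 15Q from the rest. Their sum was 115, 125 and 132 TPM in 15Q, 98.1, 105 and 97.6 TPM in 84Q and 95.5, 95.4 and 94.9 TPM in 84Q+IGF-1. The group means were 124 ± 8.79, 100.3 ± 4.19 and 95.2 ± 0.317 TPM (SD, n = 3), and every 15Q library was above the other 6. The other classes overlapped. The basement membrane collagens summed to 142 to 155 TPM in 15Q, 126 to 161 in 84Q and 148 to 152 in 84Q+IGF-1. The other collagens summed to 170 to 192, 135 to 186 and 128 to 159 TPM, and the laminins to 116 to 123, 90.2 to 123 and 89.7 to 109 TPM, where the treated libraries lay below 15Q and 84Q replicate 2 did not.

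**Figure D4:**
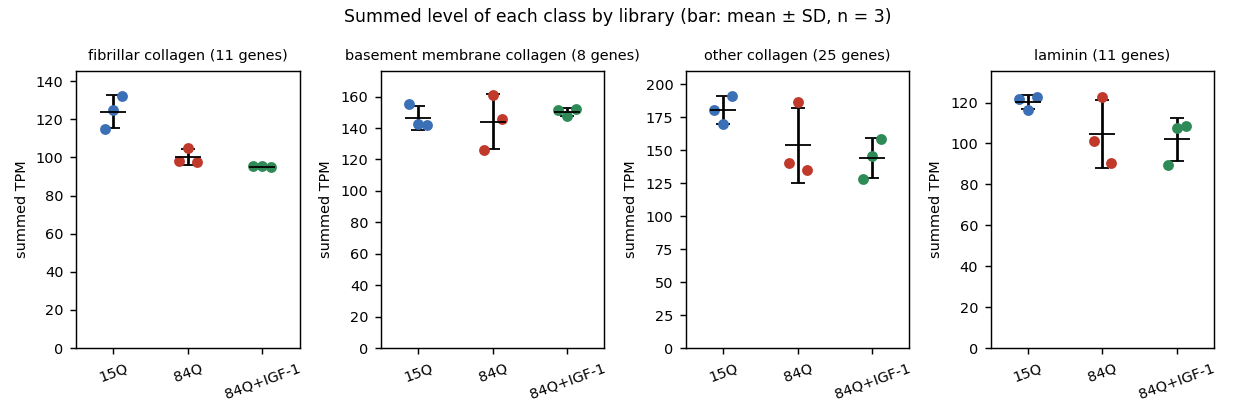
Summed TPM of the genes of each class in each library (points) with the group mean ± SD (bars, n = 3), on linear axes from 0. The fibrillar collagens are higher in every 15Q library than elsewhere, whereas the 84Q library with the highest sum lies within or above the 15Q range in the other classes.

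The effect of IGF-1 treatment was read from 84Q+IGF-1 against 84Q. By edgeR's quasi-likelihood test 0 of the 54 genes were called (0.00% of all genes), and by DESeq2 0 as well. An unadjusted p under 0.05 was reached by 3 genes, Col1a1, Col8a1 and Col8a2, or 5.56% of those tested, against 4.68% of all genes. Every treated library lay below every 84Q library in 1 gene, Col1a1 (4.50% of all genes), and above in 1, Col7a1 (3.96%). The median log2 fold change was −0.04, with 34 of 54 below 0 (51.2% of all genes), and its sign turned without 84Q replicate 2 (0.056) or without treated replicate 1 (0.024). That of Col1a1 was −0.41 ± 0.13 (unadjusted p = 0.00832 and adjusted p = 0.969, edgeR), and those of Col8a1 and Col8a2 were −2.37 ± 0.92 and −1.64 ± 0.63. Without 84Q replicate 2, in which both were high, the latter were −0.34 and −0.64.

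The sequence before the RefSeq start was looked up for genes called in at least 1 comparison. RefSeq tables of the GRCm38.p6 assembly gave the 250 bases before the annotated start for 40 of the 55 genes. The promoters of 5 called genes follow, 5′ to 3′ on the strand of the gene, with capitals for matches on either strand to the TATA box letters TATAAA, the CCAAT box letters CCAAT or the GC box letters GGGCGG. They lie at chr6:4505368-4505617 on the plus strand for Col1a2, chr1:45311288-45311537 on the plus strand for Col3a1, chr1:24587438-24587687 on the minus strand for Col19a1, chr11:51289670-51289919 on the plus strand for Col23a1 and chr3:130180595-130180844 on the plus strand for Col25a1. The Col1a2 and Col25a1 windows lie inside the genes as placed above, since the RefSeq start is downstream of the GENCODE start.
Col1a2: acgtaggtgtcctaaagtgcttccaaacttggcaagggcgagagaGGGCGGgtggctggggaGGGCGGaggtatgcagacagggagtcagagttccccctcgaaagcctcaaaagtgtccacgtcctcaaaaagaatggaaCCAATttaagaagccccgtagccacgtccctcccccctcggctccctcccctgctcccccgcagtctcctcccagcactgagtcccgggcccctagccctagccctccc
Col3a1: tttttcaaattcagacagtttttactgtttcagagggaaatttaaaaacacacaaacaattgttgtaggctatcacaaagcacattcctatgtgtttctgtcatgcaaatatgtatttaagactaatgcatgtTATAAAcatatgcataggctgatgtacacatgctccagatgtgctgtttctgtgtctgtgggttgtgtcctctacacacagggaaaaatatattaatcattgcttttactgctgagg
Col19a1: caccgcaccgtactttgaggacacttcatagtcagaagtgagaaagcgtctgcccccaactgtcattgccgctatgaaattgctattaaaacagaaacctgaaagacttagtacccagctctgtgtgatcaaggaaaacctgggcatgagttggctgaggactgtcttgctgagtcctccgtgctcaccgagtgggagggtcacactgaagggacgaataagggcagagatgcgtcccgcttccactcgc
Col23a1: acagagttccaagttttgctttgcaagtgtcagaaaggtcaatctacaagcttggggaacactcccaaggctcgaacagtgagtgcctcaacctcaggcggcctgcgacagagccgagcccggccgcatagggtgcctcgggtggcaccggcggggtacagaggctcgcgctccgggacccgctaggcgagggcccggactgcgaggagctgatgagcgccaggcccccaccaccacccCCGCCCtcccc
Col25a1: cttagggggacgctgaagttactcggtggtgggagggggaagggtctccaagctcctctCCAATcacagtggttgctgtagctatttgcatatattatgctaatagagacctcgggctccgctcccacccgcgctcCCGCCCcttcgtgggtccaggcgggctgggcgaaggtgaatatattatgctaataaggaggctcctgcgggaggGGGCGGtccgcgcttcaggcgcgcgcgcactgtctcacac

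No motif was found in all 5 promoters. Col1a2 and Col25a1 each held 2 matches to GGGCGG and 1 to CCAAT, Col3a1 held 1 to TATAAA, Col23a1 held 1 to GGGCGG and Col19a1 held none of the 3. Over the 40 genes with an entry, TATAAA was found in 5 (12.5%, against 12.4% of all 32841 promoters of the table), CCAAT in 13 (32.5% against 33.9%) and GGGCGG in 23 (57.5% against 32.7%). Each of the 40 genes counts with a single entry, whereas the 32841 promoters are all entries of the table, not limited to a single entry per gene or to protein-coding genes. The percentages are therefore not like for like. A match describes letters in this window and is not a binding site. Col1a1 and Col5a2 had no entry.

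Genes that act with collagens and laminins were examined as fixed lists in the same fits, and every call among them was lower than in 15Q. Of 30 genes for collagen synthesis and crosslinking, 0 were called in either comparison, with medians of −0.00 and −0.06. In that list the most abundant were Bmp1, which removes procollagen propeptides, at 360 ± 28.9, 343 ± 31.4 and 360 ± 23.2 CPM in 15Q, 84Q and 84Q+IGF-1, and Mia3, which exports procollagen from the endoplasmic reticulum, at 234 ± 8.59, 210 ± 16.0 and 228 ± 6.27 CPM. Of 17 tested receptors for collagen and laminin, 0 were called either, with medians of −0.03 and −0.13, and Gp6 was below the filter. Dag1, which encodes dystroglycan, was at 142 ± 2.72, 138 ± 14.1 and 130 ± 2.40 CPM, and the laminin receptor subunit Itga7 at 107 ± 3.36, 107 ± 6.09 and 114 ± 6.81 CPM.

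Among 19 partners in the basement membrane, 1 fell in 84Q and 3 in 84Q+IGF-1, where 1.90% and 2.06% of all genes were called lower. Fbln2, a fibulin, was at 7.30 ± 0.351, 4.70 ± 0.291 and 3.98 ± 0.515 CPM and fell by 0.64 (edgeR adjusted p = 0.0324) and 0.88 (edgeR adjusted p = 0.00405). Nid1, the nidogen that links laminin to type IV collagen, fell by 0.61 in 84Q+IGF-1 (edgeR adjusted p = 0.0228), and so did Smoc2, by 1.73 (edgeR adjusted p = 0.0864). The most abundant partners, Sparc and Agrn, averaged 642 and 148 CPM and were not called. The medians were −0.04 and −0.16.

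Of 18 tested matrix proteases and inhibitors, 2 fell in 84Q, Mmp3 and Mmp16, and 2 in 84Q+IGF-1, Mmp3 and Mmp2, with Mmp8 and Mmp13 below the filter. Over all genes 1.90% and 2.06% were called lower. Mmp2, a gelatinase, was at 5.19 ± 0.545, 3.11 ± 1.39 and 2.06 ± 0.681 CPM and fell by 1.33 in 84Q+IGF-1 (edgeR adjusted p = 0.0505), and Mmp16 fell by 0.83 in 84Q (edgeR adjusted p = 0.0510). Mmp3, or stromelysin-1, was at 1.30 ± 0.510 CPM in 15Q and at 0.0305 ± 0.0287 CPM in 84Q, a level under 3 counts per library. A gene at that level in 84Q passes the filter only through a group where it is higher, so the direction of this call is not read as support. Ctsb and Timp3, the most abundant, averaged 510 and 101 CPM and were not called. The medians were 0.03 and −0.18.

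Among these 5 lists the one with the most calls was that of fibril-associated proteoglycans and glycoproteins. In it 4 of 19 genes fell in 84Q and 5 in 84Q+IGF-1 (1.90% and 2.06% of all genes), with medians of −0.31 and −0.60. Bgn, which encodes the fibril-binding proteoglycan biglycan, was at 28.6 ± 3.78, 18.6 ± 3.75 and 15.4 ± 2.23 CPM and fell by 0.62 (edgeR adjusted p = 0.0643) and 0.89 (edgeR adjusted p = 0.0101). Dcn, the related decorin, was at 31.3 ± 4.39, 19.6 ± 4.54 and 15.3 ± 4.37 CPM and fell by 1.03 in 84Q+IGF-1 (edgeR adjusted p = 0.0228). Lum, or lumican, fell by 0.89 (edgeR adjusted p = 0.0821) and 1.44 (edgeR adjusted p = 0.00973), and Tnxb, or tenascin X, fell by 0.79 in 84Q (edgeR adjusted p = 0.0689). Fn1 and Prelp, the most abundant, averaged 93.9 and 37.5 CPM and were not called. Between the 84Q+IGF-1 and 84Q libraries, no gene of these 5 lists or of the marker lists described next was called.

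Markers of the cells that make these proteins were read beside the collagens. For meningeal and perivascular fibroblasts, 12 of 12 markers had estimates below 0 in both comparisons, 3 were called lower in 84Q and 4 in 84Q+IGF-1, and the summed level was 96.5 to 165, 51.0 to 94.5 and 53.2 to 73.4 CPM in 15Q, 84Q and 84Q+IGF-1. Slc13a4 averaged 30.9, 16.8 and 11.7 CPM and Cdh1 was at 19.4 ± 3.73, 11.0 ± 1.69 and 12.5 ± 1.38 CPM, and Lum belongs to this list too. Markers of epidermis, intestine and liver were also higher in 15Q, and their part in these values, such as those of Cdh1, was not tested. The 15Q sums lay above the others in CPM, but in TPM 84Q replicate 1, at 141, was above 15Q replicate 1, at 129. What part this has in the lower type I and III collagen was not tested.

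Smooth muscle markers summed to 83.0 to 87.2 CPM in 15Q against 67.5 to 75.7 CPM elsewhere, with Myh11 called in 84Q. Pericyte markers summed to 330 to 364 against 272 to 316 CPM. Anpep was the only 1 of the 10 pericyte markers called, in both comparisons, and the list had median log2 fold changes of −0.18 and −0.23. Intestine and liver markers were also higher in 15Q, and their part in Anpep was not tested. Endothelial markers gave 0 calls and overlapped, at 307 to 347 CPM. The 2 most abundant were Myh11 and Synpo2, Rgs5 and Vtn, and Flt1 and Slco1a4 in these lists. Cartilage and bone markers gave 0 calls at 33.2 to 43.5 CPM, led by Comp and Alpl. Of the 10 listed, Matn1, Ibsp and Bglap, named after their values were seen, were at no more than 0.220 CPM in any library. Blood markers, led by Hba-a1 and Hba-a2, gave 0 calls and ranged from 24.7 to 213 CPM.

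The lists foreign to the cerebellum gave 5 and 7 calls of 10 tested for epidermis, 8 and 8 of 10 for skeletal muscle (11 of 12 names matched, Tnnc2 did not), 6 and 7 of 7 for intestine and 5 and 5 of 8 for liver in 84Q and 84Q+IGF-1, all lower than in 15Q (1.90% and 2.06% of all genes). Of the 12 intestine and 12 liver markers the others were below the filter. A marker near 0 outside 15Q passes the filter only through the 15Q libraries, so the filter sets this direction in part. These lists were led by Krt10 and Perp, Actn3 and Acta1, Lgals4 and Muc13, and Ttpa and Cps1. The choroid plexus list, led by Ttr and Clic6, gave 0 calls in both. Its 12 markers nevertheless had a median log2 fold change of −3.63 in 84Q+IGF-1 against 15Q, with 12 of 12 below 0 and 11 at an unadjusted p under 0.05 (edgeR), and one of −0.29 in 84Q, with 8 of 12 below 0. The lists for Purkinje cells (Itpr1 and Car8), granule cells (Cbln3 and Cbln1) and astrocytes with Bergmann glia (Slc1a3 and Slc1a2) gave 0 calls in both as well.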

How the data were processed

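Cerebellar RNA from 9 libraries (3 each of 15Q, 84Q and 84Q+IGF-1) was sequenced by the authors as strand-specific paired-end reads. Per the study's methods and submitters' notes, the authors used bcl2fastq 2.20, Trimmomatic 0.36, HISAT2 2.2.0 on mm10 and featureCounts, and deposited unnormalized read counts per gene. The annotation and strand setting of the counting are not given in the sources used here, so reads in the exons that 16 of the 55 genes share with another gene may be split wrongly.

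Counts were tested with edgeR 4.0.16 (quasi-likelihood, TMM scaling, filterByExpr, all 9 libraries in 1 fit, two-sided, Benjamini-Hochberg adjustment), with DESeq2 1.42.0 as an alternative, in R 4.3.3. Called genes had an adjusted p under 0.1 and a change of at least 1.5-fold. TPM used exon lengths from GENCODE vM21, which placed 37681 of the 37816 genes. The code was tested on simulated data. Named were the called genes, the 4 highest in TPM of each class and, per list, up to 3 called genes and the 2 highest in CPM; genes outside this rule are given as ranges or said to be named after their values were seen. The gene members and lists were chosen with earlier results of these data known. Results of 1 gene that counts include are not reported here. No replicate pair agreed within sampling noise.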

Additional observations from a re-analysis of the deposited data

How the results depend on the processing

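The log2 fold changes of 35 pairs of a gene and a comparison were followed through the alternatives, and 588 of 665 values kept their direction and their side of the threshold, with 49 that lost a call, 26 that gained one and 2 that changed sign. Both sign changes were of Col18a1 in 84Q (−0.021 with Xist as a covariate and −0.0076 without 84Q replicate 2, up to 0.19 without 84Q replicate 1). In 84Q against 15Q, 9 collagen and laminin genes were called with no filter on low counts (of 55, with 2.71% of all 37816 genes called), 1 without the 3 libraries highest in Ttr (chosen after seeing the data, 0.460% of all genes) and 1 to 8 when 1 library was left out, against 4. In 84Q+IGF-1 against 15Q, 16 were called with no filter (of 55, 3.40% of all genes), 12 with the libraries of the 2 groups alone (3.06%), 4 at an adjusted p under 0.05 (1.45%), 2 with Ttr as a covariate (1.33%), 4 without the 3 libraries highest in Ttr (0.925%) and 3 to 10 when 1 library was left out, against 7. In 84Q+IGF-1 against 84Q, 3 were called with no filter (Col3a1, Col8a1 and Col8a2, with 0.444% of all genes called) and 0 otherwise, and without 84Q replicate 2 the log2 fold changes of these 3 were −0.040, −0.34 and −0.64. The fit with no filter hardly moved the estimates of the genes named for it but gave far smaller p-values. For Col3a1 in 84Q, −1.57 at an adjusted p of 0.107 became −1.58 at 8.46e-35 (edgeR). Its counts of calls are not read as support. The median log2 fold change in 84Q was −0.17 with Ttr as a covariate, −0.36 without the 3 libraries highest in Ttr and −0.42 to −0.18 when 1 library was left out, and that in 84Q+IGF-1 −0.44 to −0.25. The median between 84Q+IGF-1 and 84Q ran from −0.16 to 0.056 when 1 library was left out and was 0.024 with Ttr as a covariate. The cause was not tested. Of the other values, 242 of 285 counts for the companion lists stayed within 1.5 times, and 16 of 24 summed levels of a class moved by more than 1 SD with another gene length or with CPM, as the scale itself differs.

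With the replicate number as a block, 3 genes were called in 84Q and 4 in 84Q+IGF-1 against 15Q, where 1.25% and 1.40% of all genes were. In the latter, Col19a1 and Col25a1 lost their calls under the block (edgeR adjusted p = 0.101 and 0.187) at log2 fold changes of −1.26 and −0.98. Same-numbered libraries did not deviate together (correlations of −0.309 to 0.0788), so the numbers were not taken as pairs. The tags in the titles, whose meaning is not stated, were not used in a fit. Some genes had few counts: Col25a1 had 20 to 173 per library, and Col24a1, which was not called, had 1 to 52.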
